A study of Mus musculus with 4 samples.

Results

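The zona pellucida and sperm-binding genes Zp1, Zp2, Zp3, Astl, Izumo1r and Cd9 were taken by name from an RNA-seq table of mouse oocytes, as 6 of its 21957 genes. They were chosen for the known part of their proteins in building the egg coat, in closing it after fertilization and in joining egg and sperm. The table held FPKM values, which are fragments of a gene scaled to the length of its transcript and to the size of the library, for 4 libraries with 1 library per condition. The oocytes came from hybrid B6D2F1 mice, which are offspring of C57BL/6 and DBA parents, and all donors were females 6 to 8 weeks old that had been primed with pregnant mare serum gonadotropin. The GV library was made from untreated germinal vesicle oocytes at 0 h, after the cumulus cells had been removed. The MII library was made from untreated oocytes cultured for 12 h in M16 medium that had extruded a polar body, so the group was selected for completed maturation, although its label calls the sample an embryo. The TubA10 and TubA20 libraries were made from denuded oocytes cultured for 12 h with 10 or 20 μM tubastatin A, an inhibitor of the deacetylase HDAC6, supplied in DMSO. The sample titles give these doses, while a treatment field gives 20 μM for TubA10 and 11 μM for TubA20, and the titles were followed. The labels name no stage for the treated oocytes and no vehicle for the MII oocytes. The study cites earlier work in which most oocytes given tubastatin A stopped before MII. It also reports that its own treated oocytes lost the germinal vesicle on time but were impaired in going on to MII. For this block it names the higher dose. Stage and compound therefore cannot be told apart between the treated libraries and MII. Each library came from a pool of 100 oocytes, so no spread between oocytes, females or cultures was measured and no p-value is given.

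The zona pellucida is a glycoprotein coat that the growing oocyte secretes, and its filaments are built from ZP2 and ZP3 and cross-linked by ZP1. Sperm bind to the coat through the amino-terminal part of ZP2, and after fertilization cortical granules release ovastacin, the product of Astl, which cleaves ZP2 so that further sperm no longer bind. At the egg membrane JUNO, the product of Izumo1r, is held by a glycosylphosphatidylinositol (GPI) anchor and is the receptor for the sperm protein IZUMO1, while the tetraspanin CD9 is needed for the membranes to fuse. Most of these transcripts are made during oocyte growth and stored, and the fully grown oocyte makes little new RNA, so that maturation proceeds on stored mRNA.

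All 6 genes were detected in every library, from 67.5 FPKM for Cd9 in TubA20 to 2454 FPKM for Zp3 in GV. Of the 6, all except Astl were more than 2-fold lower in TubA20 than in GV, and Astl was more than 2-fold higher. Of all genes 11.7% were lower and 7.61% higher, and of those that reached 100 FPKM in either library 31.1% and 28.0%. Against MII, which had the same 12 h of culture, Zp2, Zp3 and Cd9 were more than 2-fold lower in TubA20. In that comparison 2.44% of all genes and 4.77% of those that reached 100 FPKM were lower. In TubA10 the other 5 genes lay within 2-fold of GV and Izumo1r was lower, as it was in MII. Of all genes 5.60% were lower than in GV in TubA10 and 8.34% in MII. The summed level of the 6 genes was 4882 FPKM in GV, 4193 in MII, 4074 in TubA10 and 2087 in TubA20, which was 0.783%, 0.738%, 0.690% and 0.333% of all FPKM in those libraries. FPKM is a share of a library and the mRNA was enriched on oligo(dT) beads, so that fewer transcripts of a gene per oocyte and less capture of them by the beads cannot be told apart.

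**Figure D1:**
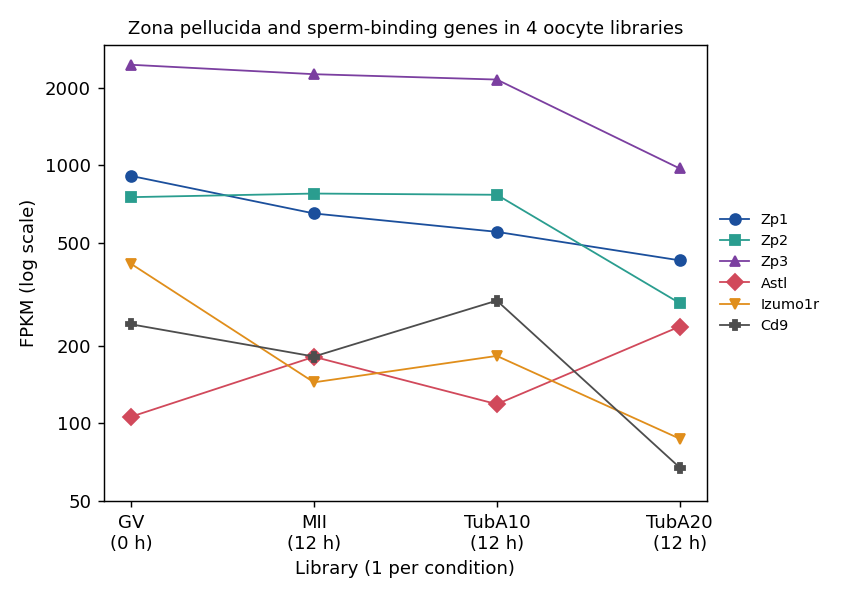
Level of each of the 6 genes (FPKM, log scale) in the 4 libraries, with 1 library per condition and therefore no error bars; lines join the points of one gene and are no time course. Zp2, Zp3 and Cd9 are near or above their GV level in TubA10 and drop to 293, 973 and 67.5 FPKM in TubA20, while Astl stands highest there at 237 FPKM.

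The libraries were close in their sum of FPKM, from 568331 in MII to 627340 in TubA20. Relative sequencing depth, estimated from the steps that single fragments leave among very low values, was 1.64 times that of GV in MII, 1.68 times in TubA10 and 0.892 times in TubA20. In the read totals that the study gives, GV was lowest, TubA20 next, and MII and TubA10 highest. All 14 oocyte markers, such as the growth factor Gdf9, had at least 1 FPKM in every library. Of 19 markers of cumulus and granulosa cells, 2 to 6 were at 0 per library and their summed level was 22.9 to 30.9 FPKM, with the defining granulosa factor Foxl2 at 0 in all 4 libraries. These markers did not move as one, since Inha had 7.50 FPKM in GV and at most 0.314 elsewhere, whereas Cyp19a1 had 6.14 in GV and 10.3 in TubA20, Kitl 0.952 and 2.30, Ptx3 0 and 1.19, Tnfaip6 0 and 1.57, and Nr5a2 9.12 to 11.5 in all libraries. Their part in the results was not tested. Of 10 blood markers, 8 or 9 were at 0 in each library, hemoglobins included, and their summed level was 1.64 to 2.30 FPKM. Gapdh, the gene behind one of the alternative scalings, had 52.6 FPKM in GV and 43.7 to 50.1 FPKM in the cultured libraries.

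Zp3, whose product is one of the building blocks of the zona filaments, is at chr5:135980099-135988624 on the plus strand (GRCm38). Its level was 2454 FPKM in GV, 2256 in MII, 2151 in TubA10 and 973 in TubA20. The 3 other libraries were within 2-fold of each other and TubA20 stood below them. Zp3 was the most abundant of the 6 genes in every library and ranked 10th among all genes in GV, 19th in MII, 22nd in TubA10 and 82nd in TubA20.

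The promoter of Zp3 is shown because the oocyte factor FIGLA, a basic helix-loop-helix protein, is known to act on zona genes through E-boxes. The 300 bases around the RefSeq start (GRCm38.p6, chr5:135979855-135980154, plus strand, written 5′ to 3′) hold 4 matches to the general E-box letters CANNTG, which are in capitals. This pattern reads the same on both strands.
Zp3 promoter: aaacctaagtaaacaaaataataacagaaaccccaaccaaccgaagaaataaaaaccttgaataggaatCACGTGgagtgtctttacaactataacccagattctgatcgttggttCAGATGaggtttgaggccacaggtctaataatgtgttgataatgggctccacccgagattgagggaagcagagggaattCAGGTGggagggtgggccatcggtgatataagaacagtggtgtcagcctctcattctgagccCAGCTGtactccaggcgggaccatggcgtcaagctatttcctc
The matches begin 181, 134 and 55 bases before the start and 8 bases after it. CANNTG occurred in 72.3% of 32851 promoters of this length and at least 3 times in 17.6% of them. The form CACGTG, 1 of the CANNTG forms, occurred in 7.15%. The level of Figla itself was 90.5 FPKM in GV, 41.9 in MII, 70.2 in TubA10 and 12.4 in TubA20. Its lowest value was in TubA20. From GV to MII it was more than 2-fold lower, whereas Zp3 was within 2-fold. The part of Figla in the level of Zp3 was not tested.

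Zp2, which carries the region of the coat that sperm bind, is at chr7:120126772-120145291 on the minus strand. Its level was 753 FPKM in GV, 778 in MII, 770 in TubA10 and 293 in TubA20. The 3 higher libraries lay between 753 and 778 FPKM, and TubA20 had 38.8% of the GV level and 37.6% of the MII level. Zp2 moved from rank 127 in GV to 86 in MII and 97 in TubA10 and to 407 in TubA20.

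Zp1, which links the filaments to each other, is at chr19:10914287-10920632 on the minus strand. Its level was 910 FPKM in GV, 651 in MII, 553 in TubA10 and 429 in TubA20. GV was highest and each cultured library was lower, with TubA20 at 47.1% of GV and 65.8% of MII. Unlike Zp2 and Zp3, Zp1 was within 2-fold of MII in TubA20.

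The 3 zona genes therefore did not keep one ratio to each other. Zp3 exceeded Zp2 by a ratio of 3.26 in GV, 2.90 in MII, 2.80 in TubA10 and 3.32 in TubA20, which was the steadiest of the pairs given here. The ratio of Zp3 to Zp1 was 2.70, 3.46, 3.89 and 2.27 in the same order, and that of Zp1 to Zp2 was 1.21, 0.837, 0.718 and 1.46. Zp1 was above Zp2 in GV and TubA20, and below it in MII and TubA10. The summed level of the 3 genes was 4118 FPKM in GV, 3686 in MII, 3473 in TubA10 and 1694 in TubA20, the last being 41.1% of GV.

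Astl encodes ovastacin, the cortical granule protease that cleaves ZP2, and is at chr2:127338639-127357651 on the plus strand. Its level was 106 FPKM in GV, 181 in MII, 119 in TubA10 and 237 in TubA20. MII and TubA20 were the higher libraries and TubA10 was close to GV. Among the libraries cultured for 12 h, TubA10 lay below the untreated MII and TubA20 above it. Astl was the least abundant of the 6 genes in GV and TubA10 and was the fourth in TubA20, where Zp2 exceeded it by a ratio of 1.23, against 7.09 in GV, 4.29 in MII and 6.48 in TubA10.

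RefSeq gives 2 starts for Astl. The window at the upstream start (chr2:127338389-127338688) holds no CANNTG. The window at the second start (GRCm38.p6, chr2:127341386-127341685, plus strand) is shown because it holds 3 copies of CAGGTG, in capitals, at 109, 83 and 59 bases before the start.
Astl promoter, second start: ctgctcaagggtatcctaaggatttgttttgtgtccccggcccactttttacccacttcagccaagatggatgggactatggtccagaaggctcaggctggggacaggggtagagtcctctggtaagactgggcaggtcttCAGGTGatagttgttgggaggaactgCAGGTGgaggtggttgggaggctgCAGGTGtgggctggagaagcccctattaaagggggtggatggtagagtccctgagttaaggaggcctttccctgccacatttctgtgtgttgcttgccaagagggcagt
CAGGTG also occurs once in the Zp3 window and once in that of Cd9, which holds 3 CANNTG in all, at 73, 38 and 25 bases before its start. The FPKM table gives 1 value per gene, so the use of the 2 starts was not measured.

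Izumo1r, the gene of the sperm receptor JUNO, is at chr9:14885814-14903949 on the minus strand. Its level was 415 FPKM in GV, 144 in MII, 183 in TubA10 and 87.3 in TubA20. GV was highest by more than 2-fold over each of the 3 cultured libraries. Its rank among all genes went from 300 in GV to 773 in MII, 633 in TubA10 and 1350 in TubA20. Its RefSeq promoter (GRCm38.p6, chr9:14903718-14904017, minus strand) is shown beside that of Zp3, since it holds a single CANNTG, 57 bases before the start and in capitals.
Izumo1r promoter: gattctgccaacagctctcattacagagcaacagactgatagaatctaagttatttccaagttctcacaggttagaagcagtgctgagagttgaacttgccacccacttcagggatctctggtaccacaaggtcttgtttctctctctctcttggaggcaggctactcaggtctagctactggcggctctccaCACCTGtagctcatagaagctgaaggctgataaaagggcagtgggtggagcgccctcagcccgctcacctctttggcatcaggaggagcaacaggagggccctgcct

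Cd9, a tetraspanin of the egg membrane, is at chr6:125460266-125494791 on the minus strand. Its level was 242 FPKM in GV, 182 in MII, 299 in TubA10 and 67.5 in TubA20. Its highest and lowest values were thus at the 2 doses of the same compound. The ratio of Izumo1r to Cd9 was 1.71 in GV, 0.794 in MII, 0.611 in TubA10 and 1.29 in TubA20, so that the receptor gene was the more abundant of the pair in GV and TubA20. Cd9 overlaps 2 annotated genes on the opposite strand, and the library was strand-specific. The 5 other members overlap no other annotated gene.

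The first comparison asked what changed during culture without the compound. From GV to MII the log2 change of FPKM + 1 was -1.52 for Izumo1r, -0.48 for Zp1, -0.41 for Cd9, -0.12 for Zp3, 0.05 for Zp2 and 0.77 for Astl. Izumo1r was the 1 member more than 2-fold lower and no member was more than 2-fold higher, beside 8.34% of all 21957 genes lower and 3.05% higher. All 6 genes are abundant, and among the 1527 genes that reached 100 FPKM in either library, called abundant here, the share lower was 29.9%. The median of the 6 changes was -0.27, against 0 over all genes and -0.04 over the abundant ones. Thus 1 of 6 lower was no larger a share than among genes of similar abundance.

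From GV to TubA10 the log2 change was -1.18 for Izumo1r, -0.72 for Zp1, -0.19 for Zp3, 0.03 for Zp2, 0.16 for Astl and 0.30 for Cd9. Again Izumo1r alone passed 2-fold among the 6, and its change was -0.91 when libraries were scaled to equal Gapdh. The background was 5.60% of all genes lower and 0.742% higher, and 23.1% lower among the 1474 abundant genes of this comparison. The median of the 6 changes was -0.08, and that of the abundant genes was 0.10.

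From GV to TubA20 the log2 change was -2.24 for Izumo1r, -1.83 for Cd9, -1.36 for Zp2, -1.33 for Zp3, -1.08 for Zp1 and 1.15 for Astl. All 6 passed 2-fold, 5 lower and 1 higher, beside 11.7% of all genes lower and 7.61% higher. Changes of this size were frequent among abundant genes, since 31.1% of 1680 were lower and 28.0% higher. Between 16.5% and 30.5% of the abundant genes had a lower change than each of the 5 lower members, so their values were not at the edge of that range. The median of the 6 changes was -1.35, against 0.36 for abundant genes. With other scalings Zp1 came to -0.94 (equal upper quartiles) and Astl to 0.96 (median change set to 0), both short of 2-fold.

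The comparisons of MII, TubA10 and TubA20 with GV share the GV library. A value below GV in all of them, as for Izumo1r, Zp1 and Zp3, therefore rests on 1 GV library. Likewise the comparisons of TubA20 with GV, MII and TubA10 share the TubA20 library. The lower Zp2, Zp3 and Cd9 in all of these rest on 1 TubA20 library. The comparison of MII with the treated libraries asked what differed between oocytes cultured for the same 12 h. Between TubA10 and MII no member passed 2-fold, beside 0.128% of all genes lower and 0.515% higher. The log2 change was -0.61 for Astl, -0.24 for Zp1, -0.07 for Zp3, -0.02 for Zp2, 0.34 for Izumo1r and 0.72 for Cd9. These libraries were close to each other over abundant genes, so that 1.09% of 1285 such genes had a lower change than Astl and 93.4% a lower change than Cd9.

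Between TubA20 and MII the log2 change was -1.42 for Cd9, -1.41 for Zp2, -1.21 for Zp3, -0.72 for Izumo1r, -0.60 for Zp1 and 0.39 for Astl. Zp2, Zp3 and Cd9 were more than 2-fold lower and none was higher, beside 2.44% of all genes lower and 0.328% higher. Among the 1320 abundant genes of this comparison, 63 or 4.77% were lower, and Zp2, Zp3 and Cd9 were among them. Only 0.985% of the abundant genes had a lower change than Cd9, 1.14% a lower one than Zp2 and 2.05% a lower one than Zp3. The median of the 6 changes was -0.97 and that of the abundant genes was 0.24, and 5 of the 6 members lay below the latter, while Astl lay above it, and 67.2% of the abundant genes had a lower change than Astl.

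Between the doses, TubA20 against TubA10, the log2 change was -2.13 for Cd9, -1.39 for Zp2, -1.14 for Zp3, -1.06 for Izumo1r, -0.37 for Zp1 and 0.99 for Astl. Cd9, Zp2, Zp3 and Izumo1r were more than 2-fold lower, and none was more than 2-fold higher, beside 5.52% of all genes lower and 0.660% higher. Astl lay just inside the threshold and passed it at 1.12 with equal upper quartiles, a scaling under which Izumo1r came to -0.93 and did not. Of 1433 abundant genes, 1.12% had a lower change than Cd9, 7.75% than Zp2 and 11.0% than Zp3, and 96.7% had a lower change than Astl. By the depth estimate TubA20 was lowest, while by the read totals of the study GV was lowest and TubA20 lay below TubA10. The part of depth in these differences was not tested.

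**Figure D2:**
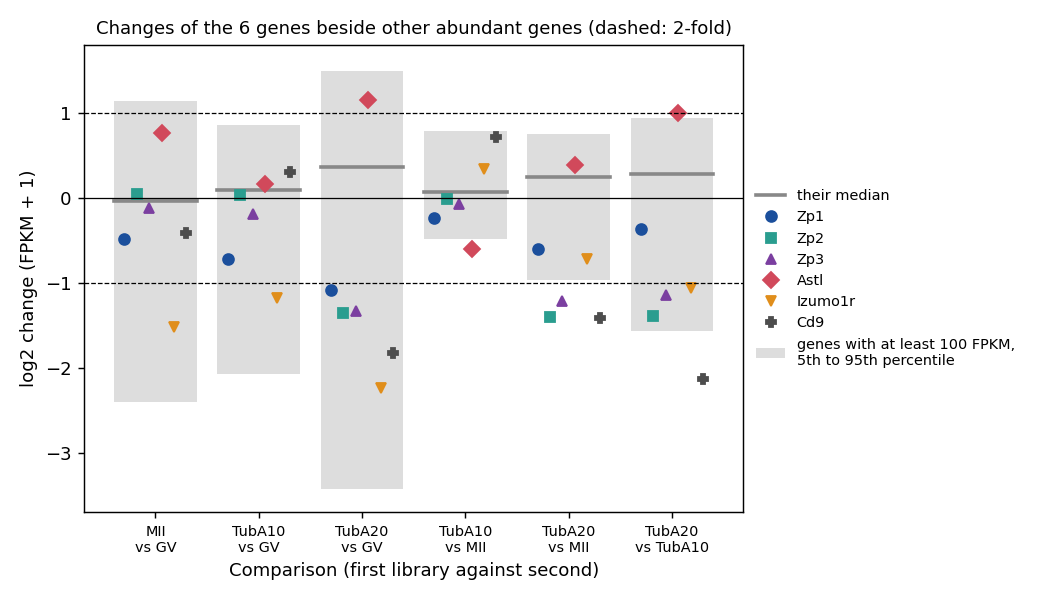
Log2 change of FPKM + 1 (vertical axis) of each of the 6 genes in the 6 comparisons, first library against second, over grey bars from the 5th to the 95th percentile of genes that reached 100 FPKM in either library and a grey line at their median. In TubA20 against MII, Zp2, Zp3 and Cd9 lie below the grey bar at -1.41, -1.21 and -1.42, whereas in TubA20 against GV all 6 genes lie within it.

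The 3′ ends of the transcripts are shown because stored oocyte mRNAs are known to be lengthened or shortened at the poly(A) tail during maturation, and because the libraries were made from mRNA held by its tail. Each line gives 30 bases of the GRCm38 transcript strand, with the polyadenylation signal AATAAA in capitals, for the principal transcript of each gene in the GENCODE annotation.
Zp3 (chr5:135988595-135988624, plus strand): tatcccttccgcAATAAAagaagaaactca
Zp2 (chr7:120132360-120132389, minus strand): attggacttgcaAATAAAgagactgcagtt
Zp1 (chr19:10914297-10914326, minus strand): ttaaatggactcAATAAAccattgtttgaa
Astl (chr2:127357616-127357645, plus strand): ggaaaaggtagaAATAAAgttgggtgtttg
Izumo1r (chr9:14900027-14900056, minus strand): catggtaccttcAATAAAaggctaggaaac
Cd9 (chr6:125460268-125460297, minus strand): aatttgatacatAATAAAagattataacag
The zona genes had very short 3′ untranslated regions (UTRs), of 13 bases in Zp3, 34 in Zp1 and 49 in Zp2, and in Zp3 the signal shares bases with the stop codon TAA. The 3′ UTR was 877 bases long in Astl, 333 in Izumo1r and 395 in Cd9. Over 1713 genes that reached 100 FPKM in any of the 4 libraries the median was 473 bases, and 0.701% of them had a shorter 3′ UTR than Zp3, 1.69% than Zp1 and 3.74% than Zp2. Each of these shares counts 10 genes with an annotated length of 0, which are most of the 12 genes shorter than Zp3.

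The cytoplasmic polyadenylation element (CPE) is the sequence through which CPEB1 is known to recruit the machinery that extends tails during maturation. On the transcript strand, the letters TTTTAT or TTTTAAT were found in the 3′ UTR of Cd9, once, 274 bases from the end, and in none of the 5 other members. Of the 1713 abundant genes, 52.6% held at least 1 match. For comparison, Gdf9 held 1 match 39 bases from its end and the oocyte-secreted protein gene Oosp3 held 5. Absence of these letters says only that they are not in these regions of the annotated transcripts.

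Among the abundant genes, those without these letters had lower medians than those with them in most comparisons. From GV to MII the median log2 change was -0.61 for 812 genes without and 0.50 for 901 genes with a match, and from GV to TubA20 it was -0.84 and 0.83. Between TubA20 and MII the medians were -0.19 and 0.25, whereas between TubA10 and MII the order was the other way, 0.24 without and -0.07 with a match. The zona genes Zp1, Zp2 and Zp3, which hold no match, changed by -0.60 to -1.41 there, and Astl, which also holds none, by 0.39. The 73 abundant genes with a 3′ UTR of up to 50 bases, Zp1, Zp2 and Zp3 among them, had a median of -0.58 between TubA20 and MII. Of these, 27.4% were more than 2-fold lower, against 9.39% of the 1640 genes with longer ones. Of the 73, 10 have an annotated length of 0. Many others encode ribosomal proteins, a family whose mRNAs the study reports as reduced with tubastatin A, with a few exceptions. Genes of one library are not replicates, and UTR length was not separated from gene family. The part of UTR length or sequence in the levels of the 6 genes was not tested.

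**Figure D3:**
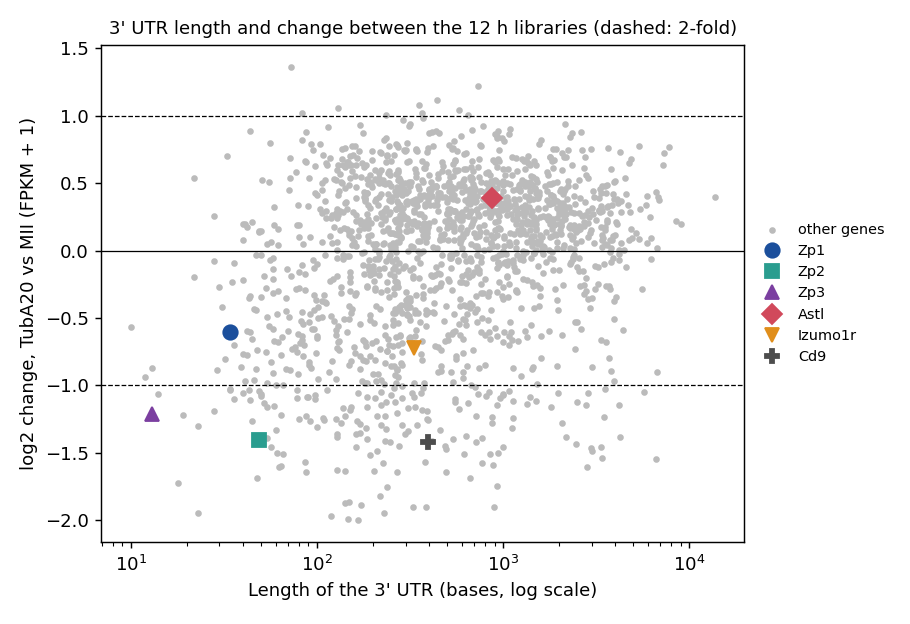
Length of the 3′ UTR (bases, log scale) against the log2 change of FPKM + 1 between TubA20 and MII for the genes that reached 100 FPKM in any library and have a 3′ UTR, each point 1 gene, with the 6 genes as large symbols. Zp3, Zp1 and Zp2 stand at the left edge at 13, 34 and 49 bases with changes of -1.21, -0.60 and -1.41, and Astl stands at 877 bases with 0.39.

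Of the genes that act with the members, 11 were adhesion and fusion partners of the egg membrane. From GV to TubA20, 5 of them had negative changes, 1 was more than 2-fold lower and 2 were higher, beside 11.7% and 7.61% of all genes, with a median of 0.13, and none passed 2-fold between TubA20 and MII. The integrin genes Itga6 (56.8 FPKM in GV, 120 in MII, 91.1 in TubA10 and 167 in TubA20) and Itga9 (95.5, 170, 168 and 215 FPKM) were the 2 higher ones, at 1.54 and 1.16. Igsf8, which encodes a partner of CD9 and is named after its values were seen, was the lower one at -1.16, and it was below GV in MII and TubA10 too, at -1.15 and -1.25, as Izumo1r was. Cd81, the tetraspanin closest to Cd9 in known function, was low throughout, at 1.66 FPKM in GV, 1.82 in MII, 1.91 in TubA10 and 2.15 in TubA20. The folate receptor genes Folr1 and Folr2, relatives of Izumo1r, were at most 0.623 and 1.16 FPKM. The integrin partner gene Itgb1 was at 15.7, 23.5, 20.9 and 23.8 FPKM, and Cd151 at 9.47, 7.83, 7.89 and 6.00.

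JUNO needs a GPI anchor, and 26 of 27 listed genes of anchor synthesis were in the table. From GV to TubA20, 7 were more than 2-fold lower and 3 higher. Of the 10760 genes that reached 1 FPKM in either library, 23.9% were lower and 15.5% higher. The median of the list was 0.03 and turned to -0.59 among the 16 that reached 5 FPKM. Between TubA20 and MII 1 gene of the list was lower and none higher, beside 2.44% and 0.328% of all genes. Piga, which starts the synthesis, had 6.43 FPKM in GV, 11.7 in MII, 10.7 in TubA10 and 13.9 in TubA20. Pigf was the most abundant of the list in each library, at 220, 299, 242 and 476 FPKM. These and Pgap2, named after its values were seen, were the 3 higher genes from GV to TubA20, at 1.001, 1.11 and 1.11. Pigp was at 61.2, 80.6, 67.1 and 106 FPKM, Dpm2 at 68.4, 54.4, 76.4 and 34.5, and Pigu at 56.2, 30.7, 49.6 and 31.7. The gene that was lower between TubA20 and MII was Pigs, at -1.21, named after its values were seen.

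Of 15 genes for the making and processing of the coat, 2 were more than 2-fold lower and 2 higher from GV to TubA20, with a median of 0.21. The background was 11.7% lower and 7.61% higher of all genes, and 23.9% and 15.5% of those that reached 1 FPKM. The lower ones were Figla, at -2.77, and Fetub, at -1.70, whose product fetuin-B inhibits ovastacin and which is named after its values were seen. Fetub had 103 FPKM in GV, 36.3 in MII, 38.6 in TubA10 and 31.2 in TubA20, so that each cultured library lay below GV. A relation between Fetub and Astl was not tested. The higher ones were Furin, a convertase known to cut secreted precursors, at 1.48 (10.4, 21.8, 14.1 and 31.0 FPKM), and Oosp1, at 1.20 (2700, 3521, 3198 and 6213 FPKM). Between TubA20 and MII, Figla was the 1 gene that passed 2-fold, at -1.68, beside 2.44% of all genes lower. Oosp2 was at 1120, 745, 899 and 713 FPKM, Oosp3 at 1687, 1910, 1585 and 3002, and Plat, a protease gene translated during maturation, at 513, 942, 754 and 949.

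Astl is stored in cortical granules, and 24 of 25 listed genes of their exocytosis were in the table. Of these, 2 were more than 2-fold lower and 1 higher from GV to TubA20, beside 11.7% and 7.61% of all genes. Of genes that reached 1 FPKM in either library, 23.9% were lower and 15.5% higher. The median of the list was -0.04 and turned to 0.51 among the 14 that reached 5 FPKM. None of the list passed 2-fold between TubA20 and MII. The higher one was Rab6a, at 1.20 (48.3, 86.8, 71.6 and 113 FPKM), and the lower ones, Stx4a at -2.12 and Napa at -1.14, are named after their values were seen. Snap23, a membrane fusion protein of the granules, had 13.6 FPKM in GV, 26.9 in MII, 24.1 in TubA10 and 24.5 in TubA20. Rab11a was at 585, 481, 759 and 497 FPKM, Nsf at 73.6, 77.2, 91.0 and 94.1, and Actn4 at 28.95, 38.4, 40.7 and 56.6.

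Between GV and MII, without the compound, fewer genes of these lists passed 2-fold, as was so over all genes. Of all genes 8.34% were lower and 3.05% higher from GV to MII, against 11.7% and 7.61% from GV to TubA20. Of the adhesion and fusion partners Itga6 was higher, at 1.07, and Igsf8 lower, at -1.15. Of the coat genes Figla and Fetub were lower, at -1.09 and -1.49, and of the exocytosis genes Stx4a and Vamp1, at -1.61 and -1.15. Of the GPI-anchor genes Pigc, Pigo and Dpm3 were lower, at -1.32, -1.32 and -1.02. Those of these genes that the rule did not name are given after their values were seen.

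Relatives by protein domain were mostly far less abundant than the members. Of 11 other genes with a ZP domain, Umodl1 had the highest level, at 456 FPKM in GV, 124 in MII, 209 in TubA10 and 55.8 in TubA20, and it was more than 2-fold lower in each comparison with GV, at -1.87, -1.12 and -3.01. It was also the 1 lower gene of that list between TubA20 and MII, at -1.14. Of all genes 8.34% were lower than in GV in MII, 5.60% in TubA10 and 11.7% in TubA20. Between TubA20 and MII 2.44% of all genes were lower, and 5.21% of those that reached 1 FPKM. Tgfbr3 reached 10.5 FPKM, Dmbt1 5.14 and Zpld1 2.24. Of 5 other astacin proteases, Mep1b (4.51, 0.940, 0.952 and 0.682 FPKM) was lower by more than 2-fold and Tll1 (2.10, 3.40, 3.35 and 5.32 FPKM) higher from GV to TubA20, beside 11.7% and 7.61% of all genes. Mep1a and Bmp1 were at most 0.0707 and 0.0411 FPKM.

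Of 30 other tetraspanin genes, 16 reached 1 FPKM in some library and the highest level was 52.1 FPKM, below every level of Cd9. Between TubA20 and MII 1 was more than 2-fold lower, beside 2.44% of all genes and 5.21% of those that reached 1 FPKM. From GV to TubA20, 5 were lower and none higher. The shares there were 11.7% and 7.61% of all genes, and 23.9% and 15.5% of those that reached 1 FPKM. Those 5 were Tspan33 (34.9, 23.3, 35.6 and 13.3 FPKM) and, named after their values were seen, Tspan13, Tspan31, Tspan1 and Tspan4, and Tspan31 was also the lower one against MII, at -1.17. Tspan14 was at 42.2, 37.8, 52.1 and 31.5 FPKM, Tspan3 at 27.8, 43.0, 41.8 and 26.9, and Tspan5 at 19.3, 32.2, 26.2 and 35.4. As a check of cell content, 16 sperm-side genes, Izumo1 included, held 4 that reached 1 FPKM, the highest being Spam1 at 9.29 FPKM in TubA10, and none passed 2-fold in any of the 6 comparisons. Zpbp2 reached 2.57 FPKM, Zp3r 1.98 and Tmem81 1.88.

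**Figure D4:**
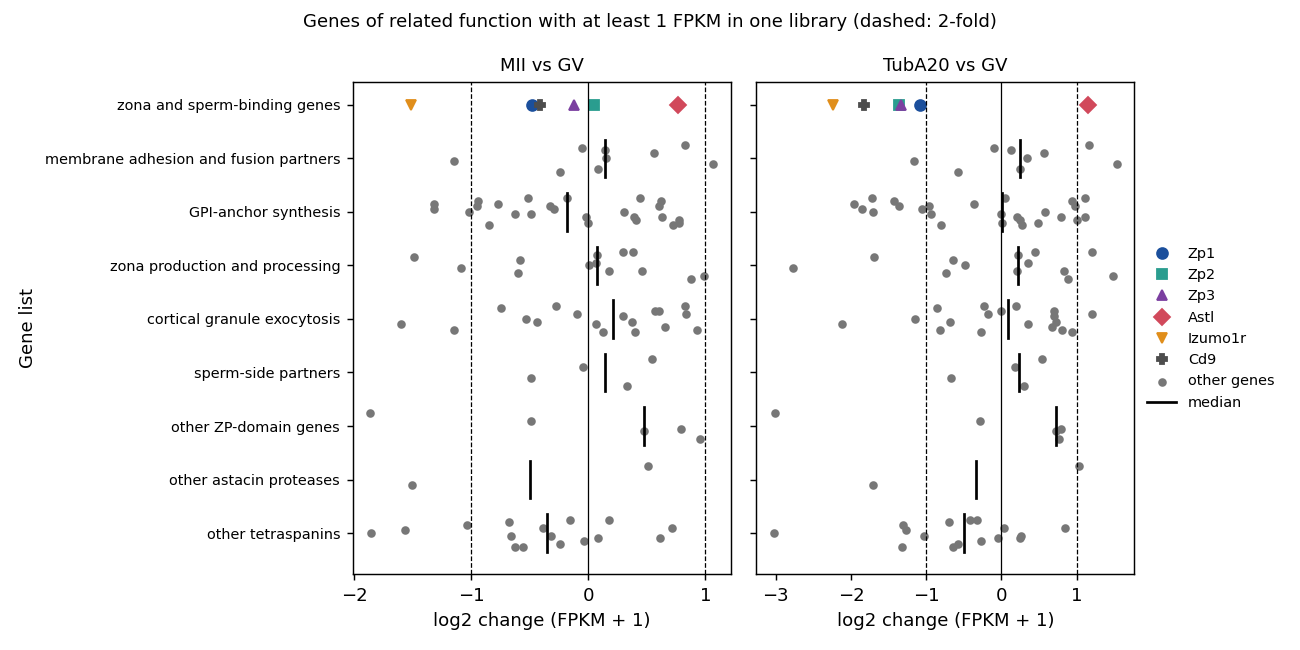
Log2 change of FPKM + 1 (horizontal axis) from GV to MII and from GV to TubA20 for the 6 genes and for the genes of 8 related lists that reached 1 FPKM in any library; each grey point is 1 gene and each black bar the median of the list. In TubA20 against GV the 5 lower members lie between -1.08 and -2.24, and the lowest point among ZP-domain genes is Umodl1 at -3.01.

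Likeness of pattern was measured as the distance between the 3 log2 changes against GV, over 4 libraries. Among the members, Zp2 and Zp3 were nearest to each other, at 0.28, and Astl and Izumo1r farthest apart, at 4.30. Of 6362 other genes that reached 10 FPKM in any library, the 3 nearest to Zp1 were Timm44 at 0.05, Chdh at 0.09 and Abcb8 at 0.10. Those near Zp2 included Slc25a1 at 0.10 and Tmem106c at 0.20. For Zp3 they were Nme1 at 0.20, Ddx41 at 0.21 and Fam84a at 0.26, so that Zp2 was not much farther from Zp3 than these.

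For Astl the nearest were Hipk2 at 0.02, Serbp1 at 0.06 and Pcnp at 0.08. Serbp1 was the most abundant of these, at 183 FPKM in GV, 320 in MII, 210 in TubA10 and 421 in TubA20. For Izumo1r they were Slc6a9 at 0.07, Mecr at 0.09 and Zbtb8os at 0.09, with Mecr at 111, 36.4, 50.2 and 22.3 FPKM. For Cd9 they were Slc25a35 at 0.20, Serpinb12 at 0.22 and Trappc6b at 0.22, the last at 66.1, 49.1, 92.9 and 19.5 FPKM. A shared order of libraries follows from how these genes were picked. The names depended on the pool of genes, since 16 of the 18 were also found with a minimum of 5 FPKM, 4 with a minimum of 50 FPKM and 11 with a pseudocount of 0.1 FPKM.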

How the data were processed

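Poly(A) RNA of 4 pools of oocytes was sequenced. The authors deposited 1 table of FPKM values, made with cufflinks (library type fr-firststrand) on mm10. The submitters' processing notes name STAR 2.5.0, Cufflinks and Cuffdiff 2.2.1. The labels name TRIzol and the methods of the study a column kit for RNA extraction. The files give no fragment counts, and the study gives total reads per library. The depth in mapped fragments is therefore unknown except for the relative estimate given in the report, and no interval could be set.

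Of 21959 entries, 21794 were given symbols by identifier (GENCODE M21, GRCm38) and 165 kept their identifier, and entries with a shared symbol were summed to 21957 genes. A change was the log2 ratio of FPKM + 1, called past 2-fold, which understates changes of low genes. No scaling was added and no test was run, since each condition had 1 library. The 6 comparisons were described beside all genes and beside genes that reached 100 FPKM in either library. Promoters came from RefSeq (GRCm38.p6), where 4 of the 6 genes matched, and 3′ UTRs from GENCODE transcripts. Genes named were the 6 members, the 4 most abundant of each of 8 lists, 8 set genes and the 3 nearest in pattern to each member, of which 1 is not reported here. The members and lists were chosen with earlier results of these data known. Alternatives were pseudocounts of 0.1 and 0.01, 4 scalings, a 3-fold threshold, and the highest entry per symbol. Scripts (Python 3.11.15, numpy 2.4.6, pandas 2.3.3, matplotlib 3.10.9) were tested on simulated data.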

Additional observations from a re-analysis of the deposited data

Results flagged for a closer look

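In 2 of the 6 genes the doses went in opposite directions from GV. The log2 change of Zp2 was 0.03 in TubA10 and -1.36 in TubA20, so that TubA20 minus TubA10 was -1.39. Zp2 in TubA10 lay so close to GV that its sign turned to -0.11 when the median change of genes was set to 0. The log2 change of Cd9 was 0.30 in TubA10 and -1.83 in TubA20, and TubA20 minus TubA10 was -2.13. With 1 library per dose neither difference was tested. Groups of 1 library could not be searched for samples that stand apart.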

How the results depend on the processing

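Across the 6 genes, 6 comparisons and 8 alternatives, 265 of 288 log2 changes kept their sign and their side of 2-fold, and no called change turned its direction. Uncalled values near 0 changed sign for Zp2 (MII vs GV -0.08, TubA10 vs GV -0.11 with the median change at 0, and TubA10 vs MII 0.02 with equal Gapdh) and Zp3 (MII vs GV 0.01 at equal sums of FPKM, and 0.11 for MII and 0.08 for TubA10 vs GV at equal Gapdh). With a 3-fold threshold the members lower were 0 for MII vs GV, 0 for TubA10 vs GV, 2 for TubA20 vs GV (Izumo1r and Cd9), 0 for TubA20 vs MII and 1 for TubA20 vs TubA10 (Cd9), the member higher for TubA20 vs GV became 0, and the medians of -1.35 (TubA20 vs GV) and -1.10 (TubA20 vs TubA10) did not pass it, which follows from the threshold. With equal Gapdh the members lower for TubA10 vs GV were 0 and the median was 0.19, and the median for TubA20 vs MII was -1.12; at equal sums of FPKM that median was -1.11. With the median change at 0 the members higher for TubA20 vs GV were 0. With equal upper quartiles 1 member was higher for TubA20 vs TubA10 and the median was -0.97. The scalings moved the median change of 9193 genes that had 1 FPKM or more in all libraries, which was 0.13 for MII, 0.14 for TubA10 and 0.19 for TubA20 against GV as deposited. Of all genes past 2-fold, the share higher was 26.7% for MII vs GV as deposited and 13.98% to 51.0% over the scalings, 11.7% and 4.10% to 46.6% for TubA10 vs GV, 39.4% and 23.7% to 49.5% for TubA20 vs GV, 80.1% and 69.8% to 83.9% for TubA10 vs MII, 11.8% and 5.84% to 19.9% for TubA20 vs MII, and 10.7% and 3.57% to 24.3% for TubA20 vs TubA10. No paired analysis was possible because each condition had 1 library, and no library could be left out. The study gives total reads per library, but the depth in mapped fragments is unknown. With a minimum of 1, 5 or 100 FPKM in either library, the share of genes past 2-fold was more than 1.5 times as high in all 36 values (for TubA20 vs GV lower, 11.7% became 23.9%, 26.8% and 31.1%). With a minimum of 1 or 5 FPKM, 185 of 192 counts in the lists stayed within 1.5 times, and 43 of the 63 list medians that were not 0 kept their sign. With FPKM + 1, a gene below 1 FPKM in both libraries cannot pass 2-fold. The counts at a minimum of 1 FPKM were therefore fixed in advance and are no check. The shares rose at that minimum only because fewer genes were counted.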
